A study of Mus musculus with 8 samples.

Results

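Distal chromosome 1 is described here by its islands of Brdt ChIP signal in mouse male germ cells. It was defined as every island of Brdt ChIP signal that starts at 24 Mb or beyond on chromosome 1 of the mm9 build, up to the last island base at 197195400, a span of 173.2 Mb. It held 37399 of the 426082 islands in the 4 deposited lists together. By list there were 16664 members in BD1del round spermatids, 10386 in BD1del spermatocytes, 6962 in wild-type round spermatids and 3387 in wild-type spermatocytes. The background was 17 other autosomes, chromosomes 2 to 13 and 15 to 19. The autosome that these numbers skip was not compared, so ranks among chromosomes below do not cover it. Of the islands on the segment and the background together, the segment held 9.26% in BD1del round spermatids, 10.5% in BD1del spermatocytes, 11.2% in wild-type round spermatids and 13.1% in wild-type spermatocytes, while it makes up 7.62% of their joint span.

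Brdt is the BET protein of the testis. BET proteins carry a pair of bromodomains, through which they bind acetylated histone tails. In male germ cells it acts in the gene expression programme of meiosis and, after meiosis, in the removal of hyperacetylated histones from spermatid chromatin. The first bromodomain, BD1, recognises acetylated histone H4.

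The study set germ cells with a deletion of BD1 in Brdt (BD1del) against wild-type cells, at a meiotic stage (spermatocytes) and a post-meiotic stage (round spermatids). Each of these 4 groups had 1 anti-Brdt ChIP library and 1 input library, so 8 samples in all. Cells were separated on a BSA gradient and fractions of a stage were pooled. Wild-type mice were C57BL/6, with 10 mice pooled per fractionation and chromatin cut by MNase to about 200 bp. The sources used here do not give the strain and number of BD1del mice or the age of the animals. The antibody was raised in rabbit against recombinant Brdt, per the wild-type labels. List names also record a different read set for each genotype (F3-F5 for BD1del, F3 for wild type), so genotype and read set cannot be told apart. With 1 library per group no difference between groups could be tested, and every value below describes these libraries.

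An island is a run of 200-base windows called as enriched in ChIP reads and joined across gaps of up to 600 bases, and is listed with its ChIP reads, its control reads, a p-value, a fold over control scaled by library size, and an FDR below 0.01. ChIP reads inside all islands came to 7310429 in BD1del round spermatids, 6391762 in BD1del spermatocytes, 4506707 in wild-type round spermatids and 6476047 in wild-type spermatocytes. From the deposited folds, the control library was 5.45, 5.64, 3.79 and 1.79 times as large as the ChIP library in the same order of lists. Reads in islands and the ratio of control to ChIP library size thus differed together with the groups. Their part in the differences between lists was not tested. The lower limit of 24 Mb came from the coverage of the wild-type lists, so values at the limit only describe the choice. In the first bin inside the limit the covered share was 10.5% in BD1del round spermatids, 11.6% in BD1del spermatocytes, 9.22% in wild-type round spermatids and 9% in wild-type spermatocytes. In the bin just outside it, from 23 to 24 Mb, these shares were 10.1%, 10.6%, 41.7% and 54.8%. In wild-type spermatocytes the nearest islands were chr1:24002801-24008200 inside the limit, with a fold of 1.33, and chr1:23997801-24001800 outside it, with a fold of 1.74.

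Brdt islands covered about 2 times as large a share of distal chromosome 1 as of the background chromosomes in every list. The covered share of the segment was 10.5% in BD1del round spermatids, against 5.20% on the background. BD1del spermatocytes had 11.4% on the segment and 5.70% on the background. Wild-type round spermatids had 7.72% and 4.18%, and wild-type spermatocytes had 5.56% and 2.67%. The ratio of segment to background was therefore 2.03, 1.995, 1.85 and 2.08 in the 4 lists. In each list the segment lay above all 17 background chromosomes, of which the most covered reached 6.30%, 6.81%, 5.31% and 3.65%. These chromosomes were chromosome 2 in both BD1del lists and chromosome 19 in both wild-type lists. Without replicates, the spread of the 17 background chromosomes was the only scale at hand, and they ran from 4.33% to 6.30% in BD1del round spermatids and from 1.83% to 3.65% in wild-type spermatocytes.

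Islands on the segment were both more frequent and longer. There were 96.2 islands per Mb in BD1del round spermatids, 60.0 in BD1del spermatocytes, 40.2 in wild-type round spermatids and 19.6 in wild-type spermatocytes, against 77.8, 42.3, 26.4 and 10.7 per Mb on the background. The segment had more islands per Mb than any of the 17 background chromosomes in each list. Mean island length was 1096, 1896, 1921 and 2841 bases on the segment and 669, 1348, 1586 and 2496 bases on the background, in the same order of lists. In wild-type spermatocytes this mean lay above 16 of the 17 background chromosomes, with chromosome 4 at 2888 bases. The median length in that list, 2200 bases, lay above 10 of the 17. Islands of a single 200-base window made up 28.7% of the segment's islands in BD1del round spermatids, against 40.6% on the background, and were less common than on the background in the other 3 lists as well.

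The fold over control went the other way. Median island fold on the segment was 5.25 in BD1del round spermatids, 3.32 in BD1del spermatocytes, 2.43 in wild-type round spermatids and 1.59 in wild-type spermatocytes. On the background it was 7.39, 3.93, 2.91 and 1.76. Distal chromosome 1 had the lowest median fold of the 18 chromosomes compared in all 4 lists. These medians mix island lengths, which differed between segment and background, and fold fell with length. At 200 bases BD1del round spermatids had medians of 12.25 on the segment and 13.23 on the background. At 400 to 1800 bases these were 4.54 and 5.245. Below 4 kb the segment was lower in every length class and list. At 4 to 9.8 kb it was lower only in wild type, and at 10000 bases or more in no list. The part of length in the lower fold was not tested. Among islands of at least 1000 bases, control reads were denser on the segment, at 48.3, 54.6, 40.0 and 48.8 per kb, against 42.0, 49.3, 31.7 and 38.1 per kb on the background. ChIP reads per kb in the same islands were 29.3, 28.5, 24.5 and 42.8 on the segment and 29.0, 27.9, 22.3 and 36.7 on the background. High coverage on the segment thus came with denser control reads, and the part of control reads in the coverage was not tested. Limiting the lists to islands with a fold of at least 2 left ratios of segment to background coverage of 1.97, 1.94 and 1.33 in BD1del round spermatids, BD1del spermatocytes and wild-type round spermatids. In wild-type spermatocytes that limit turned the direction, with a ratio of 0.967. Taking only the 10000 islands of lowest p from each list gave 5.84 and 6.28 in the BD1del lists and 1.70 and 1.92 in the wild-type lists, in the same order of stages.

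**Figure D1:**
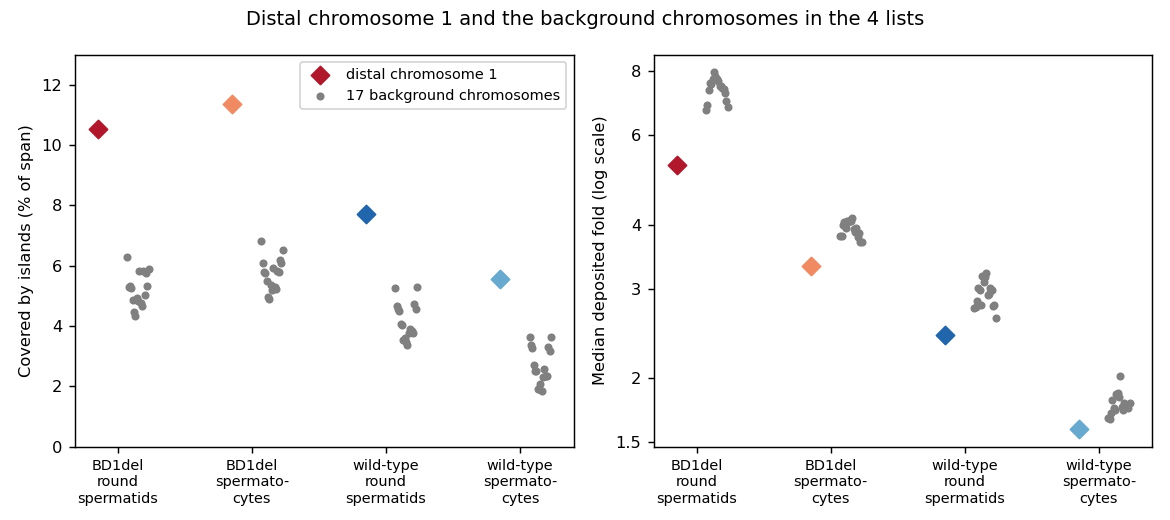
Share of the span covered by islands (left, percent) and median deposited fold over control (right, log scale) in the 4 lists. Diamonds are distal chromosome 1 and grey points the 17 background chromosomes; the segment lies above every grey point on the left and below every one on the right, with covered shares of 10.5%, 11.4%, 7.72% and 5.56%.

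The higher density of islands on the segment lay mainly below a fold of 4. For islands with a fold under 2, density on the segment was 2.98 times that on the background in BD1del round spermatids, 2.06 times in BD1del spermatocytes, 2.55 times in wild-type round spermatids and 2.24 times in wild-type spermatocytes. For folds from 2 to 4 the ratios were 2.21, 1.76, 1.40 and 1.22. Islands with a fold of 8 or more were about as frequent as on the background or less so, with ratios of 0.861, 0.887, 1.02 and 0.679. These strong islands numbered 5334 in BD1del round spermatids, 1072 in BD1del spermatocytes, 471 in wild-type round spermatids and 41 in wild-type spermatocytes.

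By length, the segment stood furthest from the background at 4 to 9.8 kb, a class chosen after the lengths were seen. BD1del round spermatids had 698 such islands on the segment, against 374 on all background chromosomes, a density ratio of 22.6. BD1del spermatocytes had 955 against 1314, a ratio of 8.81. Wild-type round spermatids had 656 against 2067, a ratio of 3.85, and wild-type spermatocytes had 844 against 3827, a ratio of 2.67. In steps of 1 kb the ratio reached 57.1 in BD1del round spermatids and 24.5 in BD1del spermatocytes, both for islands of 6000 to 6800 bases. In wild-type round spermatids and wild-type spermatocytes it was highest at 9000 to 9800 bases, at 12.98 and 4.57. These highest steps rested on 31, 87, 14 and 61 background islands in the 4 lists. Single-window islands had ratios of 0.876, 0.924, 1.11 and 1.27 in the 4 lists.

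These long islands made up 20.9% of the covered bases of the segment in BD1del round spermatids, 26.6% in BD1del spermatocytes, 26.8% in wild-type round spermatids and 49.7% in wild-type spermatocytes. They were spread along the chromosome, with at least 1 in 150, 163, 154 and 158 of the 173 bins. Their median fold was 2.80, 2.54, 1.68 and 1.42, against 2.67, 2.33, 1.79 and 1.47 in background islands of the same lengths, so it was higher on the segment in both BD1del lists and lower in both wild-type lists. Both kinds of reads were denser in them than in those background islands. ChIP reads per kb (medians) were 30.7, 29.7, 25.8 and 43.7, against 23.9, 21.1, 20 and 32.7 on the background. Control reads per kb were 60.2, 65.9, 59.3 and 55.3, against 45.1, 50.3, 42.5 and 39.8. Without them the ratio of segment to background coverage was 1.63 in BD1del round spermatids, 1.55 in BD1del spermatocytes, 1.53 in wild-type round spermatids and 1.64 in wild-type spermatocytes.

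**Figure D2:**
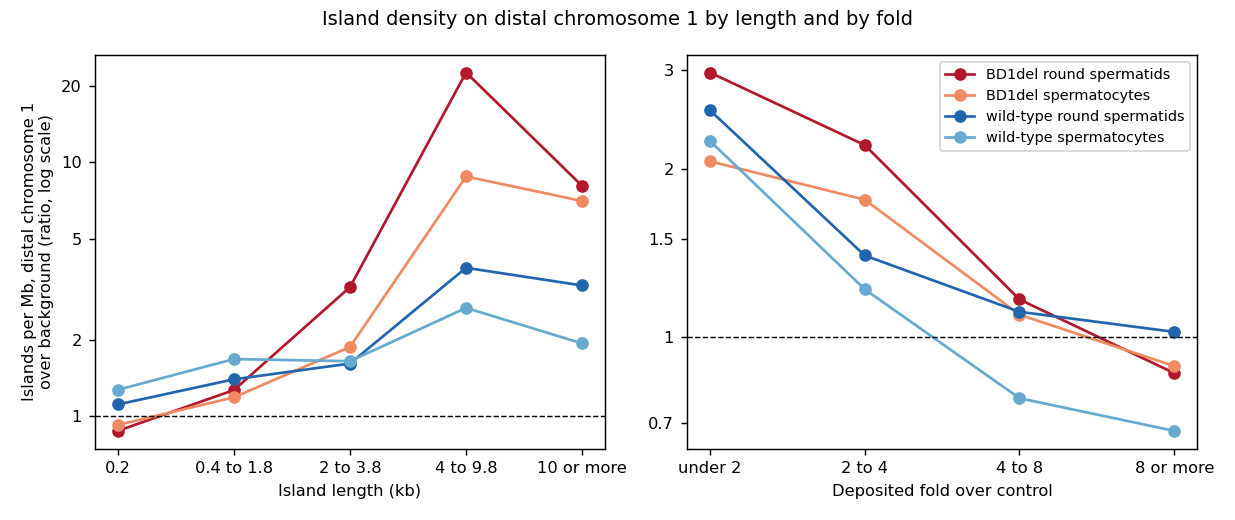
Islands per Mb on distal chromosome 1 divided by islands per Mb on the background chromosomes (log scale), by island length in kb (left) and by deposited fold over control (right), 1 line per list; the dashed line marks equal density. Ratios peak for islands of 4 to 9.8 kb, at 22.6, 8.81, 3.85 and 2.67, and are 0.861, 0.887, 1.02 and 0.679 for folds of 8 or more.

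Along the chromosome, coverage was uneven and followed much the same course in the 4 lists. Over the 173 bins of 1 Mb the median covered share was 9.72% in BD1del round spermatids, 10.3% in BD1del spermatocytes, 7% in wild-type round spermatids and 4.62% in wild-type spermatocytes, against 5.10%, 5.56%, 3.87% and 2.10% over the 2090 background bins. In BD1del round spermatids 160 bins lay above the 90th percentile of the background bins, which 9.86% of background bins passed. In BD1del spermatocytes 156 bins did (10% of background bins), in wild-type round spermatids 108 (9.67%), and in wild-type spermatocytes 78 (9.86%).

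The bin from 119 to 120 Mb was the most covered in all 4 lists, with 22.8% in BD1del round spermatids, 26.5% in BD1del spermatocytes, 17.9% in wild-type round spermatids and 17.7% in wild-type spermatocytes. It was also the bin with most islands of 4 to 9.8 kb in 3 lists, 22, 23 and 18 of them in BD1del round spermatids, BD1del spermatocytes and wild-type spermatocytes. The bin from 103 to 104 Mb had 20.8%, 22.5%, 16.6% and 13.9%, and that from 46 to 47 Mb had 17.7%, 22.2%, 14.9% and 14.3%. In all, 8 bins were among the 20 most covered of every list, starting at 46, 48, 98, 100, 103, 119, 143 and 144 Mb. Sparse bins included 91 to 92 Mb, with 5.92%, 5.70%, 4.30% and 0.72%, and 93 to 94 Mb, with 5.68%, 5.60%, 4.42% and 2.38%.

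Broad zones were defined as at least 5 neighbouring bins on the same side of the segment's median in all 4 lists. Dense zones, 40 bins in all, ran from 44 to 51, 96 to 107, 109 to 121 and 141 to 151 Mb, and sparse ones, 13 bins in all, from 69 to 76 and 133 to 139 Mb. From 109 to 121 Mb the mean covered share was 14.98% in BD1del round spermatids, 16.8% in BD1del spermatocytes, 11.6% in wild-type round spermatids and 10.0% in wild-type spermatocytes. From 69 to 76 Mb it was 7.66%, 7.71%, 4.78% and 2.45%. The summed fold, ChIP over control reads of all islands scaled by library size, was lower in the dense zone, at 3.35, 2.79, 1.95 and 1.48, than in the sparse one, at 4.98, 3.52, 2.48 and 1.65. Bins above the segment's median in all 4 lists numbered 66, or 38.2%. By the same rule with the background's own medians, 15.3% of background bins were above in all 4 lists.

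**Figure D3:**
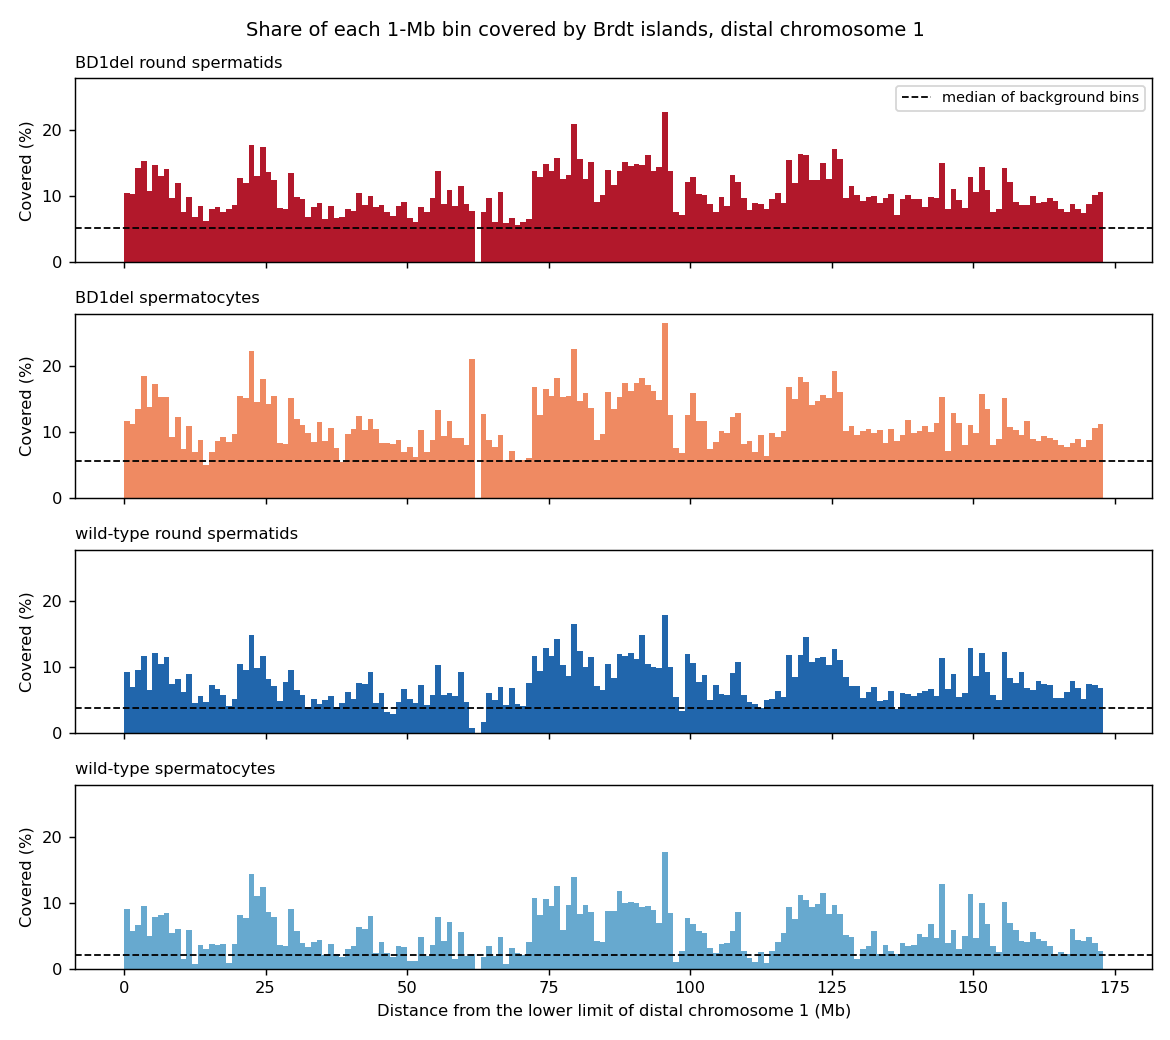
Percent of each 1-Mb bin covered by islands along distal chromosome 1, by distance in Mb from its lower limit, 1 panel per list; the dashed line is the median of the background bins in that list (5.10%, 5.56%, 3.87% and 2.10%). The same rises and dips recur in the 4 panels, with the highest bin at 22.8%, 26.5%, 17.9% and 17.7% except that BD1del spermatocytes also have a narrow spike beside the empty bin.

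Rank correlations of bin coverage between lists were high on the segment. They ranged from 0.76 to 0.89 over the 6 pairs of lists, against 0.14 to 0.67 over the background bins together. For BD1del round spermatids and wild-type spermatocytes, which share neither genotype nor stage, the value was 0.87 on the segment and 0.14 on the background. The highest single background chromosome in that pair was chromosome 19, at 0.52. Bins of 1 chromosome come from the same 4 libraries and neighbouring bins are not independent, so these are descriptions and carry no p.

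Bin coverage on the segment also ran with the density of control reads within islands. Across 172 bins with islands, Spearman's correlation of the covered share with control reads per kb was 0.72 in BD1del round spermatids, 0.71 in BD1del spermatocytes, 0.67 in wild-type round spermatids and 0.42 in wild-type spermatocytes. On the background these correlations were -0.13, 0.09, 0.40 and 0.18. With the summed fold the correlations on the segment were -0.84, -0.75, -0.80 and -0.67, and on the background -0.20, -0.27, -0.57 and -0.48. The part of control reads in the shared course of the 4 lists was not tested.

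**Figure D4:**
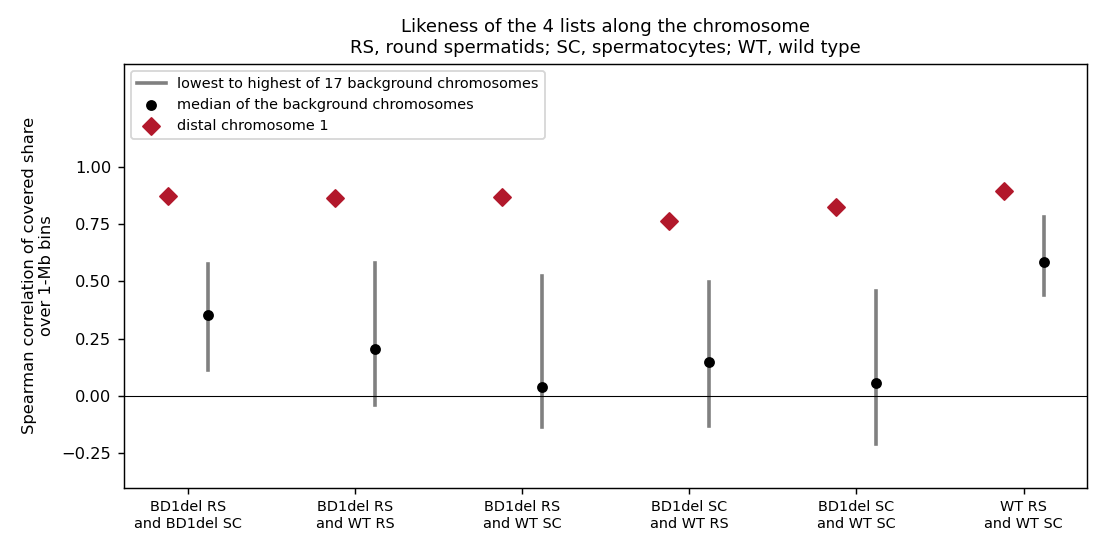
Spearman correlation of the covered share over 1-Mb bins for each pair of lists; diamonds are distal chromosome 1, lines run from the lowest to the highest of the 17 background chromosomes and dots are their medians. The segment's values, 0.76 to 0.89, lie above the highest background chromosome in all 6 pairs.

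Islands of different lists also met each other more often on the segment, where an island is met if another list holds an island that overlaps it by 1 base or more. Of the islands of BD1del round spermatids, 20.9% (exact 95% binomial interval 20.3 to 21.5%) were met by wild-type round spermatids, against 8.10% on the background. Seen from wild-type round spermatids, 48.8% were met by BD1del round spermatids, against 23.1%. Of the islands of BD1del spermatocytes 21.7% (20.9 to 22.5%) were met by wild-type spermatocytes, against 6.65% on the background, and in the other direction 64.0% against 25.1%. Intervals cover counting error only. These shares are read beside the coverage of the list that meets, which is itself higher on the segment. The share of covered bases of BD1del round spermatids that wild-type round spermatids also covered was 4.16 times the coverage of wild-type round spermatids on the segment and 2.21 times on the background. For BD1del and wild-type spermatocytes these ratios were 5.28 and 2.43.

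Between stages of a genotype, 25.7% (25.02 to 26.4%) of the islands of BD1del round spermatids were met by BD1del spermatocytes, against 10.7% on the background, and 39.7% against 19.2% in the other direction. Of the islands of wild-type round spermatids 34.8% (33.7 to 35.9%) were met by wild-type spermatocytes, against 23.0% on the background, and 68.0% against 54.7% in the other direction. In the wild-type pair the overlap relative to coverage was lower on the segment than on the background, at 7.26 against 8.52. With an FDR of at most 1e-10, shares on the segment fell to 5.35% of BD1del round spermatids met by wild-type round spermatids and 5.17% of BD1del spermatocytes met by wild-type spermatocytes, against 2.52% and 2.43% on the background. With a fold of at least 2, wild-type spermatocytes met 2.53% of the islands of BD1del spermatocytes, against 2.13% on the background. Under that limit wild-type spermatocytes met 6.42% of the islands of wild-type round spermatids, against 7.35% on the background, so that the order of segment and background turned in that pair.

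**Figure D5:**
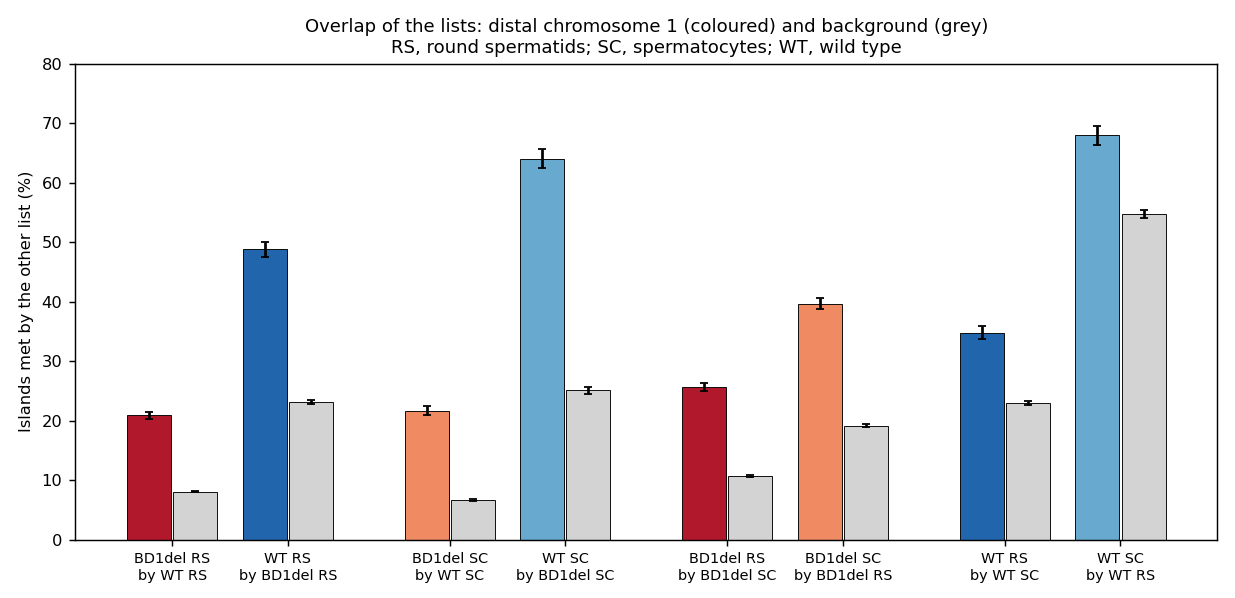
Percent of the islands of one list that overlap an island of the other by 1 base or more, on distal chromosome 1 (coloured) and on the background chromosomes (grey), for the 4 comparisons in both directions; bars on the columns are exact 95% binomial intervals and cover counting error only. Every coloured column stands above its grey one, for example 20.9% against 8.10% for BD1del round spermatids met by wild-type round spermatids.

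A shared set of islands recurred in all 4 lists on the segment. Islands that met an island of each of the 3 other lists numbered 1625 in BD1del round spermatids (9.75%), 1583 in BD1del spermatocytes (15.2%), 1623 in wild-type round spermatids (23.3%) and 1563 in wild-type spermatocytes (46.1%). On the background the shares were 1.42%, 2.64%, 4.28% and 10.9%. Per Mb there were 9.38, 9.14, 9.37 and 9.02 on the segment, 8.47, 8.20, 8.30 and 7.76 times the background density. They held 29.4%, 30.02%, 39.8% and 62.4% of the covered bases of the segment, against 3.48%, 4.09%, 6.99% and 14.7% on the background. Their median lengths were 2800, 3400, 2800 and 3600 bases, against 600, 1400, 1400 and 1600 bases for the other islands of the segment. Their median folds were lower, at 3.12, 2.83, 1.81 and 1.49, against 5.80, 3.49, 2.81 and 1.73. Folds of shared and other islands were not compared at like lengths. Each list also covered more of the segment than of the background, at 2.03, 1.995, 1.85 and 2.08 times. The part of this higher coverage in the sharing was not tested.

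Long islands were widely shared. Of the islands of 4 to 9.8 kb on the segment, 81.1% in BD1del round spermatids, 69.1% in BD1del spermatocytes, 80.9% in wild-type round spermatids and 82.0% in wild-type spermatocytes met all 3 other lists. Background islands of the same lengths did so in 38.5%, 18.7%, 21.1% and 17.4% of cases. Without this length class, 3.66%, 6.24%, 9.32% and 23.2% of the segment's islands met all 3 other lists, against 0.902%, 1.71%, 2.82% and 8.30% on the background. With a fold of at least 2 the shared set on the segment shrank to 0.486%, 0.815%, 1.70% and 10.8% of islands, 2.07, 1.99, 1.98 and 1.93 times the background density per Mb.

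Stretches covered by all 4 lists at once numbered 1776 on the segment, against 2322 on the 17 background chromosomes. They took up 2.08% of the segment and 0.105% of the background, and lay in 170 of the 173 bins. Coverage by each single list was also higher on the segment, and its part in the number of stretches was not tested. Of these stretches 262 were 4 kb or longer on the segment, and 36 were on the background. The longest on the segment was chr1:168464601-168476400, 11.8 kb. The island over it had 488 ChIP reads and 783 control reads in BD1del round spermatids (fold 3.39), 526 and 950 in BD1del spermatocytes (fold 3.12), 374 and 924 in wild-type round spermatids (fold 1.53) and 649 and 759 in wild-type spermatocytes (fold 1.53). The next was chr1:111146801-111156400, 9.6 kb, with folds of 3.12, 3.06, 1.84 and 1.56. At chr1:103907001-103915200, inside the second most covered bin of BD1del round spermatids, the folds were 3.74, 3.60, 1.59 and 1.56. These stretches were chosen by length after the lists had been compared.

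The longest islands of BD1del round spermatids and of both wild-type lists included such shared ones. In BD1del round spermatids the longest was chr1:152132801-152150000, 17.2 kb with a fold of 2.98, of which BD1del spermatocytes covered 75.6%, wild-type round spermatids 77.9% and wild-type spermatocytes 72.1%. Both wild-type lists held an island of identical limits at chr1:27785601-27799800, 14.2 kb, with a fold of 1.36 in round spermatids and 1.34 in spermatocytes, of which BD1del round spermatids covered 94.4% and BD1del spermatocytes 78.9%. The island chr1:142857001-142869800 of 12.8 kb had 673 ChIP reads against 1602 control reads in BD1del round spermatids, and the list of wild-type spermatocytes held it with 1524 against 2006. BD1del spermatocytes covered it whole and wild-type round spermatids covered 31.2% of it.

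In BD1del round spermatids the island of highest fold among those with at least 10 control reads was chr1:64447401-64448000, with 63 ChIP reads, 11 control reads and a fold of 31.2; BD1del spermatocytes covered it whole and neither wild-type list touched it. In BD1del spermatocytes it was chr1:45008001-45008400, with 303 against 38 reads and a fold of 44.96, of which BD1del round spermatids covered 50% and the wild-type lists none. In wild-type round spermatids it was chr1:38667201-38667800, with 90 against 25 reads and a fold of 13.6, not covered in any other list. In wild-type spermatocytes it was chr1:120284801-120287000, with 148 against 10 reads and a fold of 26.5, of which wild-type round spermatids covered 72.7%, BD1del spermatocytes 54.5% and BD1del round spermatids none.

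The stretch from 85 to 88 Mb, looked at because its middle bin was empty, differed widely between lists. No list had an island between 85343600 and 87362201, 2.02 Mb apart. The gap was 2.06 Mb in BD1del round spermatids, 2.02 Mb in BD1del spermatocytes, 2.23 Mb in wild-type round spermatids and 2.42 Mb in wild-type spermatocytes. On its edges BD1del round spermatids had 153 kb covered, BD1del spermatocytes 335 kb, wild-type round spermatids 25.4 kb and wild-type spermatocytes 39.0 kb. Control reads in these islands were 92.3 per kb in BD1del round spermatids, 191 in BD1del spermatocytes, 40.4 in wild-type round spermatids and 53.8 in wild-type spermatocytes. The longest island of the segment lay here, chr1:85069001-85119200 in BD1del spermatocytes, 50.2 kb with 2473 ChIP reads, 13138 control reads and a fold of 1.06. BD1del round spermatids covered 7.57% of it and the wild-type lists none.

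Set side by side in round spermatids, BD1del covered 1.37 times as much of the segment as wild type, against 1.24 times on the background. Of 172 bins covered in either list, 60 (34.9%) were at least 1.5 times as covered in BD1del, close to the 35.2% of background bins past that ratio. No bin was that much lower in BD1del, against 4.51% of background bins. Among bins covered to at least 2% in both lists, that from 71 to 72 Mb had the largest ratio, 7.06% in BD1del and 2.88% in wild type, followed by its neighbour from 70 to 71 Mb with 7.60% and 3.18%. At the other end the bin from 95 to 96 Mb had 6.56% in BD1del and 7.58% in wild type. The count of higher bins was 172 with an FDR of at most 1e-10 and 168 with a fold of at least 2. That FDR left 12336 BD1del and 1967 wild-type islands on the segment, and 129553 and 18477 on the background. With the 10000 islands of lowest p, 84 bins were higher in BD1del and 36 lower. Background bins were not counted under these limits, so the counts cannot be read as particular to the segment.

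In spermatocytes BD1del covered 2.05 times as much of the segment as wild type, against 2.13 times on the background. Here 156 of 172 bins (90.7%) were at least 1.5 times as covered in BD1del, against 79% of background bins, while the median ratio over bins was lower on the segment, at 2.12 against 2.56. No bin was that much lower, against 1.73% of background bins. Among bins covered to at least 2% in both lists, that from 85 to 86 Mb led with 21.0% in BD1del and 2.18% in wild type, where control reads in islands were 42414 in BD1del and 1206 in wild type. Next came 157 to 158 Mb with 10.3% and 2.28% and 68 to 69 Mb with 10.5% and 2.36%. Only the bin from 173 to 174 Mb was less covered in BD1del, at 11.0% against 11.3%. With the 10000 islands of lowest p, 91 bins were higher in BD1del and 32 lower, and background bins were not counted under that limit.

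Within BD1del, round spermatids covered 0.927 times as much of the segment as spermatocytes, against 0.913 times on the background. No bin was at least 1.5 times as covered in round spermatids, against 3.02% of background bins. The 2 bins that were that much lower, against 11.6% of background bins, were the flanks of the gap, with 7.72% in round spermatids and 21.0% in spermatocytes at 85 to 86 Mb, and 7.54% and 12.7% at 87 to 88 Mb. With the 10000 islands of lowest p, 24 bins were higher and 90 lower in round spermatids, and background bins were not counted under that limit.

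Within wild type, round spermatids covered 1.39 times as much of the segment as spermatocytes, against 1.56 times on the background. There were 83 bins (48.3%) at least 1.5 times as covered in round spermatids, against 62.5% of background bins. The 1 bin that was that much lower, against 1.06% of background bins, was 85 to 86 Mb, with 0.86% and 2.18%. The largest ratio among bins covered to at least 2% in both lists was at 128 to 129 Mb, with 7.24% in round spermatids and 2.32% in spermatocytes. The count of higher bins was 172 with a fold of at least 2, and 21 with the 10000 islands of lowest p, where 102 bins were lower. Background bins were not counted under these limits.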

How the data were processed

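Per the labels, Brdt-bound chromatin was sequenced from paired-end libraries. The submitters' processing notes name SICER and the mm9 build. The authors called islands from 1 ChIP and 1 control library per list, with a window of 200 bases, a gap of 600 bases and an FDR below 0.01, per the list names. The sources used here do not give the SICER version, the aligner or which input served as control. The deposited columns hold ChIP and control read counts, a p-value and an FDR, and the authors' fold, a ratio of ChIP to control reads scaled by library size. Coordinates are printed 1-based.

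From these, covered shares, island and read densities, bins of 1 Mb and overlaps of at least 1 base were computed in Python 3.11.15 with numpy 2.4.6, pandas 2.3.3 and scipy 1.17.1, and the code was tested on simulated islands. The background was chromosomes 2 to 13 and 15 to 19. Background percentages count bins past the same limit there. The sources used here do not say whether lists share a control library. Control reads differed on islands of identical limits. At chr1:27785601-27799800 they were 1182 in wild-type round spermatids and 1086 in wild-type spermatocytes. At chr1:142857001-142869800 they were 1602 in BD1del round spermatids and 2006 in wild-type spermatocytes. Lists differ in reads inside islands, and in read set by genotype.

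Named regions were, per list, the 5 most and 3 least covered bins, bins among the 20 most covered of all lists, the 3 longest islands, the 3 with the highest fold on 10 or more control reads, the 3 with most ChIP reads and those at the limit, and per comparison the 3 bins of most extreme ratio covered to at least 2% in both lists; the text prints a selection of these. Members and rules were chosen with earlier results of these data known. Length and fold classes, zones, shared stretches and the 85 to 88 Mb stretch were chosen after seeing values. No sequence or gene is named, since a genome and annotation of mm9 were not used here.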

Additional observations from a re-analysis of the deposited data

Results flagged for a closer look

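The difference in covered share between round spermatids and spermatocytes had opposite signs in the 2 genotypes. Round spermatids minus spermatocytes was -0.829 percentage points in BD1del and 2.16 percentage points in wild type on distal chromosome 1. On the background chromosomes it was -0.499 and 1.505 points. With 1 library per group this difference between genotypes was not tested. Of 172 bins, 0 were past the ratio of 1.5 higher and 2 lower in BD1del round spermatids (0% and 1.16%). Background bins gave 3.02% and 11.6%. In wild type the counts were 83 and 1 (48.3% and 0.581%), against 62.5% and 1.06% of background bins. Counts of bins past this ratio did not keep opposite directions under every limit. With the 10000 islands of lowest p, 24 were higher and 90 lower in BD1del round spermatids, and 21 and 102 in wild type. With an FDR of at most 1e-10 they were 6 and 2 in BD1del and 103 and 13 in wild type. With a fold of at least 2 they were 0 and 0 in BD1del and 172 and 0 in wild type. Background bins were not counted under these limits, so the counts cannot be read as particular to the segment.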

How the results depend on the processing

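No paired analysis was possible because each group had 1 library and no result came from a test. Leaving out a replicate was not possible for the same reason. Depth is known only as reads inside islands. Values below follow BD1del round spermatids, BD1del spermatocytes, wild-type round spermatids and wild-type spermatocytes unless named.

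The ratio of segment to background coverage kept its direction under all alternatives run in all 4 lists, except wild-type spermatocytes with a fold of at least 2, where it was 0.967; the cause was not tested. It moved to 1.97, 1.94 and 1.33 with that limit in the other 3 lists. With an FDR of at most 1e-10 it was 2.07, 2.26 and 1.83 in BD1del round spermatids, BD1del spermatocytes and wild-type spermatocytes. With the 10000 islands of lowest p it was 5.84, 6.28, 1.70 and 1.92. With at least 10 control reads it was 2.14 in BD1del round spermatids. Without islands of 4 to 9.8 kb, chosen after seeing the data, it was 1.63, 1.55, 1.53 and 1.64. With the background taken from 24 Mb on it was 2.01, 1.98 and 2.14 in both BD1del lists and wild-type spermatocytes. Without the 10% most covered bins it was 1.97, 1.88 and 2.28 in BD1del spermatocytes and both wild-type lists. In 10 further ratios the value stayed within the interval of the main value, for example 2.015 to 2.04 in BD1del round spermatids. This interval took 200-base windows of 1 library as independent, although islands join neighbouring windows, and held the background fixed. It is therefore too narrow to judge how stable a ratio is, and only sorted which values were printed.

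Shares of islands met are given in both directions for BD1del and wild-type round spermatids, BD1del and wild-type spermatocytes, both BD1del lists and both wild-type lists. Background shares under these settings were computed only for the first direction of each pair, and not for the overlap of 50%. With an FDR of at most 1e-10 they were 5.35% and 31.2%, 5.17% and 51.4%, 18.1% and 32.1%, and 11.5% and 35.6% on the segment. The first direction gave 2.52%, 2.43%, 6.27% and 9.24% on the background. With a fold of at least 2 the shares on the segment were 10.5% and 35.5%, 2.53% and 33.1%, 22.7% and 37.1%, and 6.42% and 41.4%. The first direction gave 5.915%, 2.13%, 9.66% and 7.35% on the background. With the 10000 islands of lowest p the shares on the segment were 10.5% and 11.8%, 19.2% and 30.2%, 34.5% and 28.0%, and 15.1% and 16.95%. The first direction gave 4.33%, 6.21%, 4.31% and 13.7% on the background, so the wild-type pair was near it. When 50% of the island had to be covered, the shares on the segment were 17.1% and 35.4%, 18.3% and 54.6%, 22.2% and 26.5%, and 30.5% and 55.5%. With at least 10 control reads BD1del round spermatids were met in 24.1% by wild-type round spermatids and 29.4% by BD1del spermatocytes, and wild-type round spermatids in 36.5% by wild-type spermatocytes. On the background these 3 shares were 9.52%, 12.2% and 24.5%.

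The share meeting all 3 other lists was 1.08%, 1.90%, 6.41% and 20.1% under the FDR limit, 0.486%, 0.815%, 1.70% and 10.8% under the fold limit, and 4.85%, 3.91%, 5.46% and 6.18% with the 10000 islands of lowest p. On the background it was 0.265%, 0.580%, 1.86% and 5.62% under the FDR limit and 0.2865%, 0.566%, 1.10% and 6.05% under the fold limit. The 10000 islands gave 1.455%, 1.56%, 1.39% and 1.53% there. Under the FDR limit the density per Mb was 4.70, 4.56, 4.45 and 4.455 times that on the background. On the segment it was 7.76%, 10.9%, 18.5% and 34.0% when 50% of the island had to be covered, with no background share computed. Without islands of 4 to 9.8 kb it was 3.66%, 6.24%, 9.32% and 23.2%, against 0.902%, 1.71%, 2.82% and 8.30% on the background. With at least 10 control reads it was 11.7% in BD1del round spermatids and 24.5% in wild-type round spermatids, against 1.87% and 4.53% on the background.

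Of the counts of bins past the ratio of 1.5, 17 moved and 31 did not. Background bins were not counted under these alternatives, so no background share stands beside them. For BD1del over wild-type round spermatids, 172 bins were higher under the FDR limit, 168 under the fold limit, and 84 higher and 36 lower with the 10000 islands of lowest p. For BD1del over wild-type spermatocytes, 91 were higher and 32 lower with the 10000 islands of lowest p. For round spermatids over spermatocytes in BD1del, 6 were higher with that FDR, 24 higher and 90 lower with the 10000 islands, 0 lower with a fold of at least 2, 1 lower after leaving out the 1% of islands densest in control reads, and 7 higher and 12 lower in bins of 500 kb. In wild type, 13 were lower with that FDR, 172 higher and 0 lower with a fold of at least 2, and 21 higher and 102 lower with the 10000 islands.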

Other observations

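Islands with exactly the same limits in all 4 lists numbered 7 on distal chromosome 1, or 0.0404 per Mb, against 22 on the 17 background chromosomes, or 0.0105 per Mb. Islands of 10 kb or more numbered 14 in BD1del round spermatids, 25 in BD1del spermatocytes, 10 in wild-type round spermatids and 23 in wild-type spermatocytes, and 78.6%, 72.0%, 100% and 87.0% of them met all 3 other lists. The background had 21, 43, 37 and 144 islands that long, of which 4.76%, 13.9%, 48.6% and 44.4% did so. Median control reads per kb in islands that long were 62.1, 73.1, 69.6 and 65.5 on the segment. On the background they were 211, 175.5, 121 and 54.6.

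Among the 5 longest stretches covered by all 4 lists, the one of highest coordinates was chr1:197176601-197185000. Its islands had more control reads than those of the other 4, with 1392 in BD1del round spermatids, 1636 in BD1del spermatocytes, 2037 in wild-type round spermatids and 2007 in wild-type spermatocytes, and folds of 1.97, 2.71, 1.23 and 1.17.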
